A study of Mus musculus with 9 samples.

Results

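The Hox cluster genes are the 39 genes of the deposited count table whose symbol is Hoxa, Hoxb, Hoxc or Hoxd followed only by digits, of 33924 genes in all. Described here are 38 of them, 10 Hoxa, 10 Hoxb, 9 Hoxc and 9 Hoxd genes, and the choice of members used symbols alone, not measured values. They were measured by RNA sequencing of male mouse embryonic stem (ES) cells kept on gelatin in medium with fetal bovine serum and leukemia inhibitory factor (LIF), with no treatment. There were 9 libraries in 3 groups of 3. The wild-type group, titled JM8A, is labelled wild type for UTX. The UTX knockout group, titled A6, carries a knockout of UTX (Kdm6a), a demethylase that removes methyl groups from lysine 27 of histone H3. The third group, titled JM8A with a further number, is labelled as a knockdown of MLL4 (Kmt2d), a methyltransferase of lysine 4 of histone H3 that works in a complex with UTX. The labels do not say whether a group is 1 clone, how the knockdown was made, whether it had a control reagent, or whether libraries came from separate cultures. The p-values therefore measure the spread between these libraries only, and a line or clone cannot be told apart from its perturbation.

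Hox genes encode homeodomain transcription factors that give cells of the embryo their position along the head-to-tail axis. In each cluster the genes lie in the order in which they are used: low numbers act early and near the head, high numbers late and near the tail, in limbs and in the genital region. In undifferentiated ES cells the clusters are textbook Polycomb targets, covered with methylated lysine 27 of histone H3 and kept nearly silent until signals such as retinoic acid or Wnt arrive. UTX and the MLL proteins are known as the enzymes that act against that repression.

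Kdm6a was at 89.0, 57.1 and 90.6 CPM (counts scaled to a common library size) in wild type and at 12.8, 16.9 and 19.4 CPM in UTX knockout cells (-2.27 on the log2 scale, SE 0.20, adjusted p = 0.000155, edgeR quasi-likelihood test), lower in all 3 knockout libraries than in any wild-type library. Kmt2d, listed under its older symbol Mll2, was at 86.2, 43.5 and 119 CPM in wild type and at 71.0, 72.0 and 73.4 CPM in the third group, inside the wild-type range (log2 fold change -0.20, SE 0.27, adjusted p = 0.624). The confidence limits of that fold change, -0.79 and 0.39, leave room for a fall. Against wild type a knockdown is thus neither shown nor excluded. The third group lay below the UTX knockout cells, which were at 110, 96.9 and 130 CPM for Kmt2d (log2 fold change -0.64, SE 0.27). That difference missed the threshold of 0.05 (edgeR adjusted p = 0.0987) but passed in a fit with a replicate block (0.0376). The third group is called the MLL4-labelled libraries throughout, after its label alone. All 10 ES cell markers were detected. They summed to 5178 to 6217 CPM in wild type. UTX knockout cells were at 6489 to 7078 CPM and the MLL4-labelled libraries at 6511 to 7178 CPM, both above wild type. Without Tdgf1, the most abundant, the sums were 3568 to 4748, 4750 to 5011 and 4715 to 4884 CPM. The last group then overlapped wild type. Against wild type 1 rose (6.55% of all genes tested) and 1 fell (8.92%) in UTX knockout cells. In the MLL4-labelled libraries 4 rose (10.8%), among them Klf4, and 2 fell (15.8%), among them Zfp42. Library totals ran from 18570746 to 23874816 counts.

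The Hox clusters were close to silent in every library. The 38 genes together took 244 to 406 counts per library, 0.00111% to 0.00189% of the total, and 2881 counts over the 9 libraries. A summed count of at least 90 over the 9 libraries was reached by 9 of the 38 genes: Hoxa7, Hoxa10, Hoxb9, Hoxb13, Hoxc4, Hoxc13, Hoxd1, Hoxd8 and Hoxd13. At least 30 counts were reached by 18 genes and at least 300 by 2, Hoxc13 and Hoxd13. None of the 38 was at 0 in all libraries. At least 1 count was found for 36 genes in wild type, 32 in UTX knockout cells and 33 in the MLL4-labelled libraries.

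**Figure D1:**
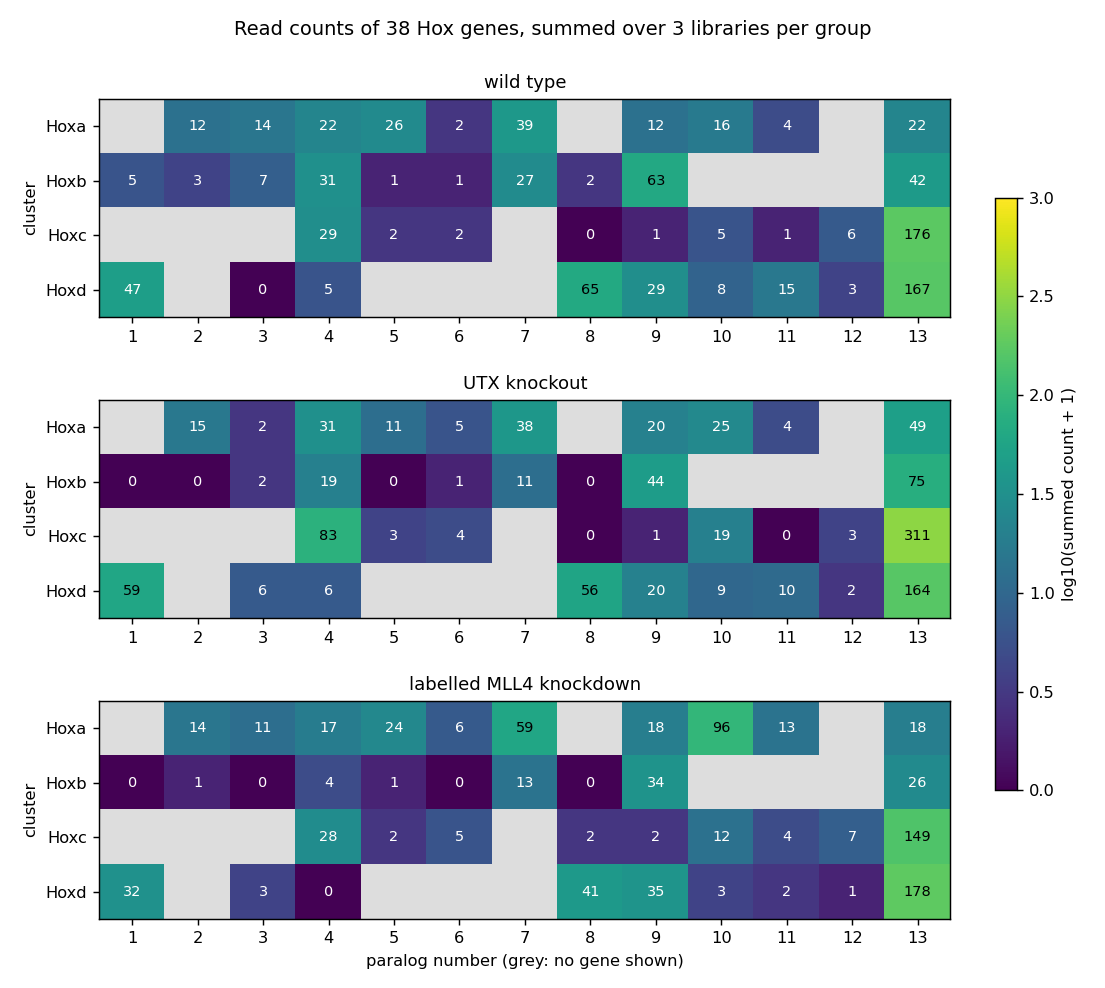
Read counts of the 38 Hox genes, summed over the 3 libraries of each group (colour: log10 of the summed count plus 1), by cluster (rows) and paralog number (columns), with grey where no gene is shown. Counts gather in a few genes, with Hoxc13 at 176, 311 and 149 and Hoxd13 at 167, 164 and 178, while genes 5, 6 and 8 of Hoxb and Hoxc stay at 5 or fewer in each group.

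Levels can be compared between genes only per length, taken here as CPM per kilobase of exon (GENCODE M21 gene models on GRCm38). On that scale Hoxc13, a gene of hair and nail, had the highest mean of the 38 over the 9 libraries, 1.35, followed by Hoxd13, a gene of digits and the genital tubercle, at 1.08. The median tested gene was at 4.73 and the ES cell gene Pou5f1 at 450 on the same scale. Hoxc13 stood at the 27.4 percentile of the tested genes, Hoxd13 at 24.5 and the next, Hoxd1, at 12.1. By group, Hoxc13 was at 1.94 ± 0.199 and Hoxd13 at 1.01 ± 0.160 in UTX knockout cells (SD, n = 3). They were at 1.11 ± 0.119 and 1.06 ± 0.449 in wild type and at 0.994 ± 0.540 and 1.17 ± 0.562 in the MLL4-labelled libraries, and in neither of these groups did the difference exceed the spread. The spans of 19 of the 38 genes overlap another gene in the GRCm38 annotation, among them Hoxa10, Hoxb4 and Hoxc4. The strand setting and the handling of shared reads are unknown here, so reads of such genes may belong to the partner.

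Enough counts for the test were held by 11 of the 38 genes, the 9 above with Hoxb4 and Hoxd9, and 27 were left out (601 counts in all). A member can enter through the group where it is high, so the counts that follow describe the 11 and not all 38. Calls rest on edgeR's quasi-likelihood test with p-values adjusted over the 14772 genes tested (adjusted p under 0.05). Against wild type, Hoxc4 rose in UTX knockout cells, 1 of 11 members against 15.5% of all genes tested. By direction, 1 member was higher (6.55% of all genes) and 0 lower (8.92%). In the MLL4-labelled libraries, Hoxa10 rose and Hoxb4 fell against wild type, 2 of 11 members against 26.6% of all genes, with 1 higher (10.8%) and 1 lower (15.8%). Between the MLL4-labelled libraries and the UTX knockout, Hoxa10 was higher and Hoxb13, Hoxc4 and Hoxc13 were lower in the former, 4 of 11 against 28.9% of all genes, with 1 higher (13%) and 3 lower (16%). With 11 members, 1 gene makes 9.09% of them, so no difference from the share of all genes is read from these counts. The tested members had 54 to 636 counts over the 9 libraries and all tested genes 39 to 2257940. The 2 comparisons with wild type share the wild-type libraries, and their values stand side by side below for that reason.

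The libraries of the UTX knockout did not overlap wild type for 3 of the 11 members (31.5% of all genes), with 2 above (15.5%) and 1 below (16%). The MLL4-labelled libraries did not overlap wild type for 5 members (42.9%), with 2 above (20.5%) and 3 below (22.4%). They did not overlap the UTX knockout for 8 members (52.6%), with 3 above (25.7%) and 5 below (26.9%). The median log2 fold change of the 11 was -0.028, -0.17 and -0.37 in that order, beside medians of -0.0071, -0.018 and -0.016 over all genes. The 11 had larger errors than other genes, with a median SE of 0.41 against 0.18 in the comparison of the UTX knockout with wild type.

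**Figure D2:**
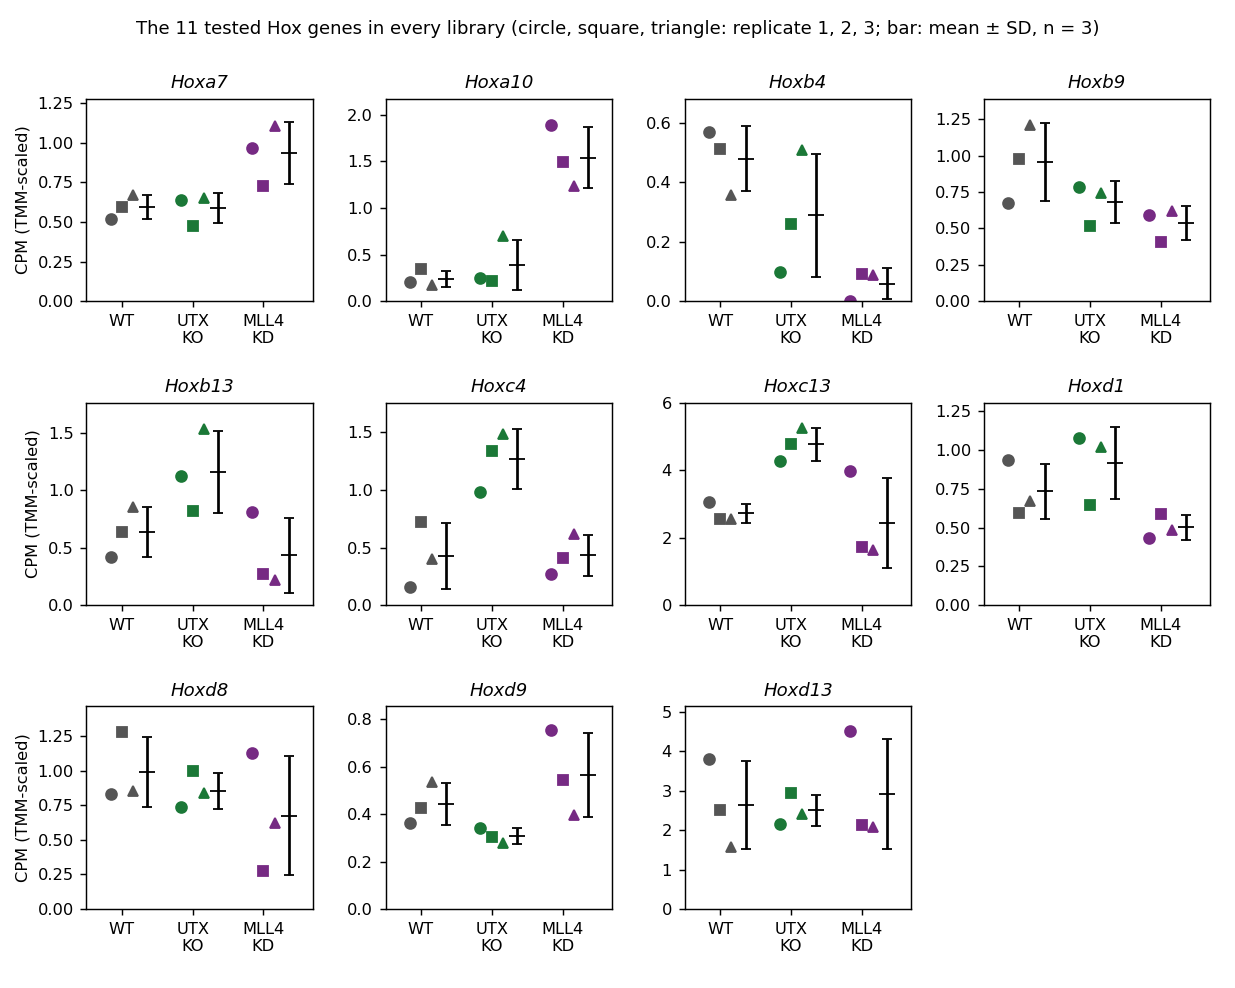
CPM (scaled by edgeR's trimmed mean of M-values, TMM) of the 11 tested Hox genes in each library; circles, squares and triangles are replicates 1, 2 and 3, and bars are mean ± SD (n = 3). Hoxa10 is above both other groups in the MLL4-labelled libraries, and Hoxc4 and Hoxc13 are above wild type in UTX knockout cells.

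In the Hoxa cluster, the MLL4-labelled libraries had more Hoxa10, a gene of the lower trunk and uterus, than both other groups. Hoxa10 was at 0.208, 0.341 and 0.179 CPM in wild type, 0.245, 0.216 and 0.697 CPM in UTX knockout cells and 1.88, 1.49 and 1.24 CPM in the MLL4-labelled libraries. In counts these were 4, 8 and 4, then 5, 5 and 15, then 35, 33 and 28. Every library labelled MLL4 knockdown lay above every other library. Hoxa10 had enough counts for the test through the MLL4-labelled libraries, the group where it is high. The log2 fold change was 2.62 against wild type (SE 0.48, adjusted p = 0.0025) and 1.98 against the UTX knockout (SE 0.45, adjusted p = 0.0074). The call against wild type held under every alternative run (adjusted p from 0.000119 to 0.0326), and the call against the UTX knockout was lost only among the lane 2 libraries (0.0929). Between the UTX knockout and wild type the groups overlapped and the log2 fold change was 0.64 (SE 0.54, adjusted p = 0.458). RefSeq gives Hoxa10 2 start sites on the minus strand, and the 250 bases before each are shown because Hoxa10 gave the most stable call (GRCm38.p6, chr6:52234940-52235189 and chr6:52240855-52241104, 5′ to 3′, with a match to TTTATA, the TATA box letters TATAAA on the other strand, in capitals).

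Hoxa10 first window: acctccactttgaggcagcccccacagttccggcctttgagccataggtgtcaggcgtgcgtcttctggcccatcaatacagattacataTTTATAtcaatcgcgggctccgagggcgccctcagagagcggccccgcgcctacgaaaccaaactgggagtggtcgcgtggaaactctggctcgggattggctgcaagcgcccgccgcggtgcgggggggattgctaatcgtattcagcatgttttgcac
Hoxa10 second window: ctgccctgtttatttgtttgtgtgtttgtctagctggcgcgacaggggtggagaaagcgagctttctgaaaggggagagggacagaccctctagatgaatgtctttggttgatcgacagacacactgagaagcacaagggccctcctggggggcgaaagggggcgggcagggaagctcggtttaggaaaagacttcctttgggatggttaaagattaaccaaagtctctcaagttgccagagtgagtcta

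Hoxa7, a thoracic gene, was at 0.519, 0.597 and 0.672 CPM in wild type, 0.638, 0.476 and 0.6501 CPM in UTX knockout cells and 0.968, 0.724 and 1.11 CPM in the MLL4-labelled libraries. The last group lay above both other groups, which overlapped each other. Its log2 fold change missed the threshold, at 0.64 against wild type (SE 0.32, adjusted p = 0.170) and 0.66 against the UTX knockout (SE 0.32, adjusted p = 0.145), and it was -0.028 between the UTX knockout and wild type (SE 0.34, adjusted p = 0.967).

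The 10 Hoxa genes described summed to 1.92, 2.56 and 3.22 CPM in wild type, 3.68, 2.29 and 3.34 CPM in UTX knockout cells and 5.16, 3.80 and 4.25 CPM in the MLL4-labelled libraries. The MLL4-labelled libraries lay above both other groups. Hoxa10 held 21.2% of these counts, and without it the other 9 genes summed to 2.33 ± 0.672, 2.72 ± 0.683 and 2.87 ± 0.503 CPM (SD, n = 3), and the groups overlapped. The 8 untested genes among them ran from Hoxa13 with the most counts, 22, 49 and 18 by group, to Hoxa6 with the fewest, 2, 5 and 6. Hoxa13, with a summed count of 89, was at 1.03, 0.432 and 0.836 CPM in UTX knockout cells. These lay above wild type (0.260 to 0.384 CPM) and the MLL4-labelled libraries (0.221 to 0.430 CPM), without a test.

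In the Hoxb cluster, the MLL4-labelled libraries were low. Hoxb genes summed to 2.49, 2.86 and 3.00 CPM in wild type, 2.06, 1.69 and 3.30 CPM in UTX knockout cells and 1.78, 0.905 and 1.15 CPM in the MLL4-labelled libraries. The last group was below all 3 wild-type libraries and overlapped the UTX knockout. Without Hoxb13, which holds 34.6% of the counts, the other 9 genes summed to 2.15 ± 0.0693 CPM in wild type, 1.19 ± 0.501 CPM in UTX knockout cells and 0.844 ± 0.183 CPM in the MLL4-labelled libraries, and both of the latter groups lay below wild type.

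Hoxb4, known for its role in blood stem cells, had 11, 12 and 8 counts in wild type, 2, 6 and 11 in UTX knockout cells and 0, 2 and 2 in the MLL4-labelled libraries. In CPM every MLL4-labelled library lay below every other library, although UTX knockout replicate 1 also had 2 counts. Hoxb4 fell against wild type in the MLL4-labelled libraries by 2.82 on the log2 scale (SE 0.74, adjusted p = 0.0169). With 4 counts in that group the size is uncertain, and the 95% interval ran from -4.45 to -1.19. The call was lost without replicate 1 (0.0520) or replicate 2 (0.0501) of the MLL4-labelled libraries and in lane 2 alone (0.131), in a range from 0.0109 to 0.131 over the alternatives. Hoxb4 had enough counts for the test through libraries of the other 2 groups, where it is higher, and not through the MLL4-labelled libraries. With only wild type and the MLL4-labelled libraries in the fit, it was too low to be tested. Hoxb4 lies within the span of Hoxb3, which had 7, 2 and 0 counts by group. Its log2 fold change was -2.11 against the UTX knockout (SE 0.80, adjusted p = 0.0669) and -0.70 between the UTX knockout and wild type (SE 0.57, adjusted p = 0.435). The 250 bases before its RefSeq start are shown because it was the member that fell against wild type (GRCm38.p6, chr11:96318017-96318266, plus strand, 5′ to 3′; capitals mark TGACCT, which reads AGGTCA on the other strand, a repeat unit bound by retinoic acid receptors).

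Hoxb4: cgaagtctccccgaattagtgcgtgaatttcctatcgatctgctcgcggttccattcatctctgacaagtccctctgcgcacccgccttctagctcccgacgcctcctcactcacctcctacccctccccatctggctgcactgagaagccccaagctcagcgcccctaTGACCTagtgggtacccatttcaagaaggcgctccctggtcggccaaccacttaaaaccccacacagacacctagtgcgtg

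Hoxb13, the gene at the tail end of the cluster and known from the prostate, was at 0.415, 0.639 and 0.851 CPM in wild type, 1.13, 0.821 and 1.53 CPM in UTX knockout cells and 0.807, 0.272 and 0.221 CPM in the MLL4-labelled libraries. Replicate 1 of the last group stood far above the other two, and just below the lowest UTX knockout library. The log2 fold change of the MLL4-labelled libraries against the UTX knockout was -1.45 (SE 0.49, adjusted p = 0.0470), and -2.21 without that replicate 1 (adjusted p = 0.0142). The call was lost without wild-type replicate 2 or 3, any 1 of the UTX knockout libraries, or replicate 2 or 3 of the MLL4-labelled libraries (adjusted p from 0.0542 to 0.172), and in lane 2 alone (0.197). Against wild type neither group passed: the log2 fold change was 0.85 in UTX knockout cells (SE 0.47, adjusted p = 0.241) and -0.60 in the MLL4-labelled libraries (SE 0.52, adjusted p = 0.426).

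Hoxb9, which acts in the thoracic skeleton, was at 0.675, 0.980 and 1.21 CPM in wild type, 0.785, 0.519 and 0.743 CPM in UTX knockout cells and 0.592, 0.407 and 0.620 CPM in the MLL4-labelled libraries. The MLL4-labelled libraries were all below wild type, and their log2 fold change against it was -0.83 (SE 0.36, adjusted p = 0.111), which missed the threshold. It was -0.49 in UTX knockout cells against wild type (SE 0.35, adjusted p = 0.364) and -0.33 between the other two groups (SE 0.37, adjusted p = 0.532). Among the 7 untested Hoxb genes Hoxb7 had 27, 11 and 13 counts by group and the other 6 had 0 to 7 counts in any group. Hoxb1, a hindbrain gene that retinoic acid switches on, had 2, 0 and 3 counts in wild type and 0 in the other 6 libraries. A group count of 0 allows a level of up to 0.0461 CPM in UTX knockout cells and 0.0474 CPM in the MLL4-labelled libraries (3 counts over the group), against a wild-type mean of 0.0794 CPM.

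In the Hoxc cluster, the UTX knockout was high. Hoxc genes summed to 3.27, 3.62 and 3.31 CPM in wild type, 5.60, 6.66 and 7.24 CPM in UTX knockout cells and 4.95, 2.67 and 2.66 CPM in the MLL4-labelled libraries. The UTX knockout lay above all 6 other libraries. Hoxc13 held 74.2% of the cluster's counts, and without it the other 8 genes were still higher in every UTX knockout library (1.33 to 2.00 CPM) than in wild type (0.208 to 1.07 CPM) and in the MLL4-labelled libraries (0.9503 to 1.02 CPM).

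Hoxc4, which acts in the neck and upper thorax, was at 0.156, 0.724 and 0.403 CPM in wild type, 0.982, 1.34 and 1.49 CPM in UTX knockout cells and 0.269, 0.407 and 0.620 CPM in the MLL4-labelled libraries. The UTX knockout stood above both other groups, which overlapped each other. Hoxc4 rose in UTX knockout cells by 1.53 on the log2 scale (SE 0.47, adjusted p = 0.0476) against wild type. That call lies at the threshold: it was lost without replicate 1 or 3 of wild type, replicate 2 or 3 of the UTX knockout or any 1 of the MLL4-labelled libraries (adjusted p from 0.0555 to 0.142), with only the 2 groups compared (0.0811) and in lane 2 alone (0.147). Against the UTX knockout, the MLL4-labelled libraries were at -1.53 on the log2 scale (SE 0.47, adjusted p = 0.0311), lost without UTX knockout replicate 2 or 3 or replicate 1 or 2 of the MLL4-labelled libraries (0.0910 to 0.111) and in lane 2 alone (0.155). Against wild type their log2 fold change was 0.00085 (SE 0.57, adjusted p = 0.999). The 250 bases before the RefSeq start are shown because Hoxc4 was the member that rose in UTX knockout cells (GRCm38.p6, chr15:103034145-103034394, plus strand, 5′ to 3′; capitals again mark TGACCT).

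Hoxc4: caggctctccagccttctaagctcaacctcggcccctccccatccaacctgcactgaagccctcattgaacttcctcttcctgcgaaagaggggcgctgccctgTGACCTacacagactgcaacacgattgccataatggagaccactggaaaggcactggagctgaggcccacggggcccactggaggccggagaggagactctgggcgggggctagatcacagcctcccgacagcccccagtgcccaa

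The letters AGGTCA, on either strand, were present in 25% of 24 RefSeq promoter windows of Hox genes and in 14% of all 32851 windows of the same length. TATAAA was present in 16.7% and 12.4%. No match in the printed windows shares bases with another motif searched. These are letter matches only, without a measurement of any factor.

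Hoxc13 was at 3.06, 2.56 and 2.55 CPM in wild type, 4.27, 4.80 and 5.25 CPM in UTX knockout cells and 3.98, 1.72 and 1.64 CPM in the MLL4-labelled libraries. The UTX knockout was above every other library, and replicate 1 of the MLL4-labelled libraries stood apart from replicates 2 and 3. The log2 fold change of the UTX knockout against wild type was 0.81 (SE 0.31, adjusted p = 0.100). It passed with the replicate block (0.0498), without replicate 1 of the MLL4-labelled libraries (0.0273) and without the libraries numbered 1 in all 3 groups (0.0116), in a range of 0.0116 to 0.392 over the alternatives. Against the UTX knockout, the MLL4-labelled libraries were lower, at -0.98 on the log2 scale (SE 0.32, adjusted p = 0.0379), and by -1.50 without their replicate 1 (0.0031). That call was lost without any 1 of the UTX knockout libraries or without replicate 2 or 3 of the MLL4-labelled libraries (0.0523 to 0.145), and in lane 2 alone (0.267). The 7 untested Hoxc genes had 0 to 19 counts in any group, with Hoxc10 at 5, 19 and 12.

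**Figure D3:**
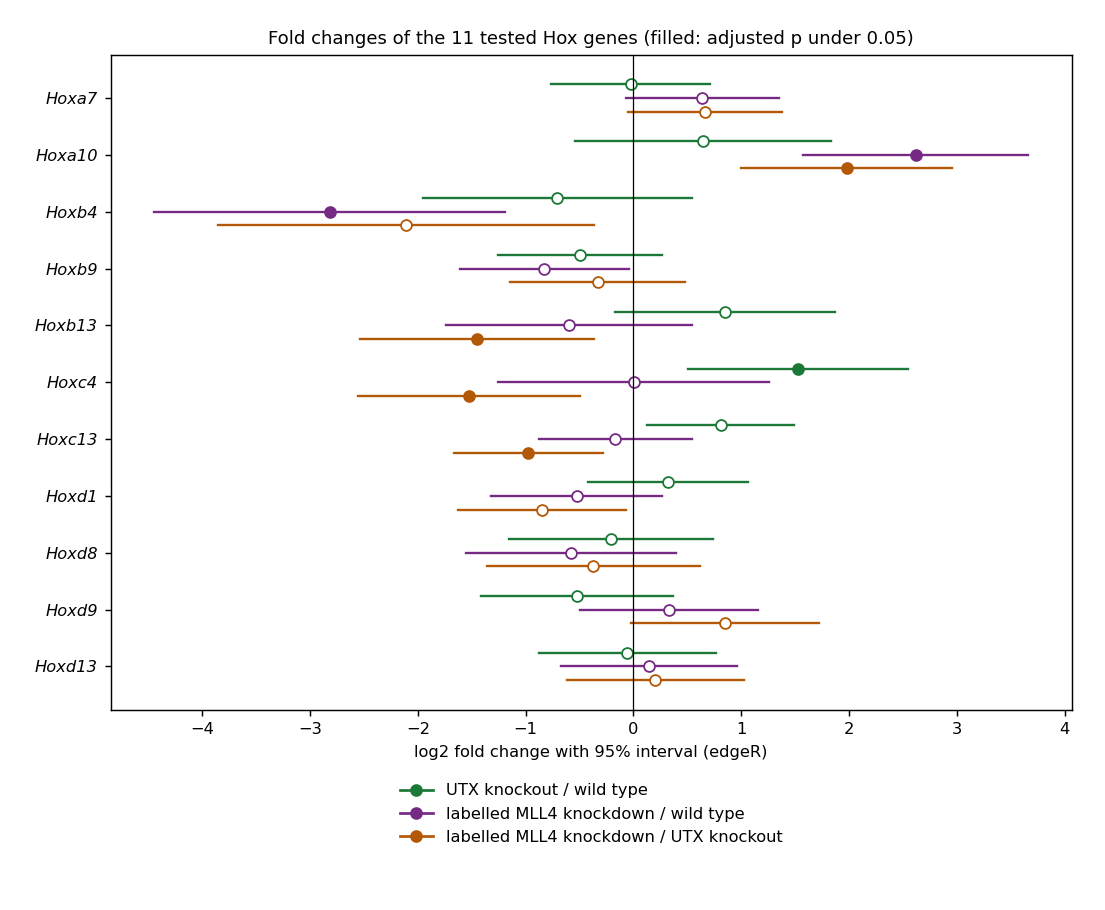
Log2 fold changes of the 11 tested Hox genes with 95% intervals in the 3 comparisons (edgeR, all 9 libraries); filled points have an adjusted p under 0.05. The filled points are Hoxc4 for the UTX knockout against wild type, Hoxa10 and Hoxb4 for the MLL4-labelled libraries against wild type, and 4 genes between the MLL4-labelled libraries and the UTX knockout.

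In the Hoxd cluster no member passed in any comparison. Hoxd genes summed to 5.28 ± 1.33 CPM in wild type, 5.09 ± 0.356 CPM in UTX knockout cells and 4.79 ± 1.91 CPM in the MLL4-labelled libraries, and the groups overlapped. Hoxd13 held 52.7% of the counts and was at 3.79, 2.51 and 1.57 CPM, 2.16, 2.94 and 2.41 CPM, and 4.52, 2.13 and 2.08 CPM. Replicate 1 was the highest library in wild type and in the MLL4-labelled libraries. The log2 fold change of Hoxd13 was -0.058 in UTX knockout cells (SE 0.38, 95% interval -0.88 to 0.76, adjusted p = 0.939) and 0.15 in the MLL4-labelled libraries (SE 0.37, 95% interval -0.67 to 0.96, adjusted p = 0.808), and 0.20 between them (SE 0.37, adjusted p = 0.715).

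Hoxd8, a trunk gene, was at 0.831, 1.28 and 0.851 CPM in wild type, 0.736, 0.994 and 0.836 CPM in UTX knockout cells and 1.13, 0.272 and 0.620 CPM in the MLL4-labelled libraries. Its groups overlapped in all 3 comparisons, with log2 fold changes of -0.21 (SE 0.43, adjusted p = 0.787) and -0.58 (SE 0.45, adjusted p = 0.367) against wild type and -0.37 between the other two groups (SE 0.45, adjusted p = 0.569). Hoxd1, the low-numbered end of the cluster, ran from 0.430 to 0.588 CPM in the MLL4-labelled libraries, below both other groups (0.597 to 1.08 CPM). Hoxd9 ran from 0.279 to 0.344 CPM in UTX knockout cells, below wild type (0.364 to 0.537 CPM) and the MLL4-labelled libraries (0.399 to 0.753 CPM). Neither passed, and the smallest adjusted p was 0.0936 for Hoxd1 and 0.130 for Hoxd9, both between the MLL4-labelled libraries and the UTX knockout. The 5 untested Hoxd genes had 0 to 15 counts in any group, and Hoxd11 had 15, 10 and 2.

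**Figure D4:**
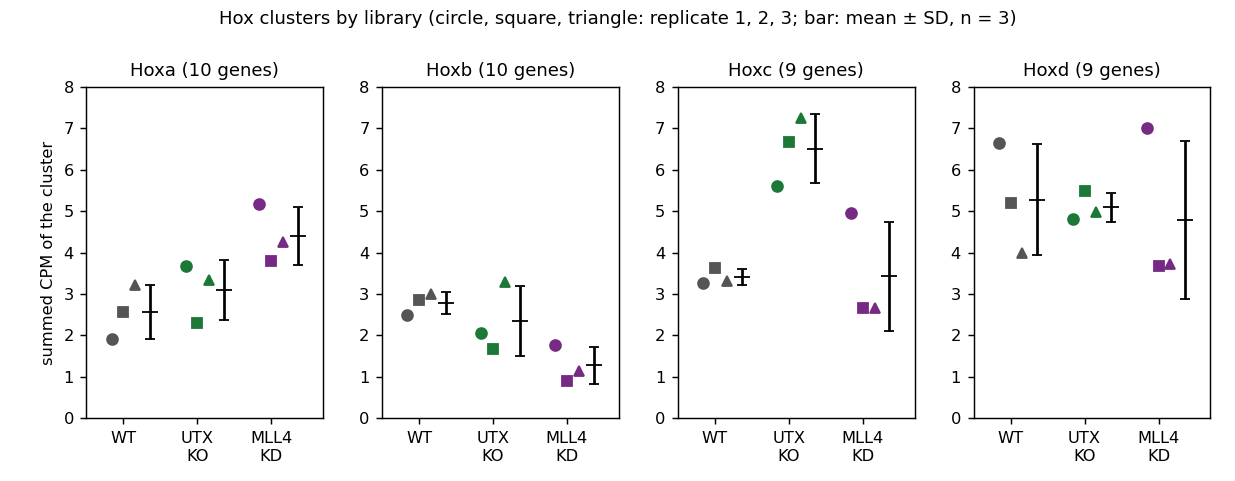
Summed CPM of the genes described in each Hox cluster (10 Hoxa, 10 Hoxb, 9 Hoxc and 9 Hoxd) in each library; circles, squares and triangles are replicates 1, 2 and 3, and bars are mean ± SD (n = 3). The Hoxa sums of the MLL4-labelled libraries lie above both other groups and their Hoxb sums below wild type, the Hoxc sums of the UTX knockout lie above both other groups, and the Hoxd groups overlap.

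Read along the axis instead of by cluster, the anterior genes (paralogs 1 to 3, 7 described) summed to 1.36 ± 0.106 CPM in wild type, 1.302 ± 0.267 CPM in UTX knockout cells and 0.973 ± 0.136 CPM in the MLL4-labelled libraries, which lay below wild type and overlapped the UTX knockout. Hoxd1 holds 59.2% of these counts. The central genes (4 to 8, 15 members) summed to 3.88 ± 0.436, 4.12 ± 0.585 and 3.21 ± 0.704 CPM, and the MLL4-labelled libraries lay below the UTX knockout but overlapped wild type. The posterior genes (9 to 13, 16 members) summed to 8.80 ± 0.770, 11.6 ± 0.882 and 9.72 ± 3.89 CPM, and the UTX knockout lay above wild type. Hoxc13 gives 33.1% of the posterior counts. Such sums describe the libraries and carry no test, and in bulk RNA fewer cells of a type and less RNA per cell cannot be told apart.

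Genes next to the clusters were read in the same way, taking the 5 tested genes on each side of each cluster. Of these 40, 4 rose (6.55% of all genes tested) and 1 fell (8.92%) in UTX knockout cells, and 4 rose (10.8%) and 10 fell (15.8%) in the MLL4-labelled libraries, both against wild type. With the replicate block, a fit to which these shares do not apply, the counts were 6 and 2, and 7 and 12. Beside Hoxb, 5 of 10 fell (6 with the replicate block) and none rose in the MLL4-labelled libraries, against 15.8% of all tested genes and 15.5% of those on chromosome 11 that fell. Those beside Hoxb included Calcoco2 (log2 fold change -2.09, SE 0.22, adjusted p = 9.2e-05), Copz2 (-2.13, SE 0.33, adjusted p = 0.000937) and Ttll6 (-1.67, SE 0.24, adjusted p = 0.000592). Calcoco2, an autophagy receptor, also fell in UTX knockout cells (-1.28, SE 0.21, adjusted p = 0.0036). Beside Hoxc, Smug1, a DNA repair enzyme, and Calcoco1 rose in UTX knockout cells by 0.64 and 0.41 on the log2 scale (adjusted p = 0.0158 and 0.0365). Calcoco1 rose in the MLL4-labelled libraries too (0.79, adjusted p = 0.000737), and was higher there than in the UTX knockout (0.39, adjusted p = 0.0279). Smug1 did not pass against wild type in the MLL4-labelled libraries (0.15, adjusted p = 0.480). Beside Hoxa, Jazf1 and Creb5 fell in the MLL4-labelled libraries by 2.50 and 2.21 on the log2 scale (adjusted p = 0.0014 and 0.0158) and Tril rose by 1.51 (adjusted p = 0.0090). Skap2 and Tax1bp1 also rose there, by 0.56 and 0.46 (adjusted p = 0.0061 and 0.0043). In UTX knockout cells Skap2 and Hibadh rose by 0.59 and 0.58 (adjusted p = 0.0091 and 0.0167). Over chromosome 11, which carries Hoxb, the median log2 fold change of 1204 tested genes was -0.0059 in the MLL4-labelled libraries, and over chromosome 15, which carries Hoxc, it was 0.024 in UTX knockout cells (564 genes).

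**Figure D5:**
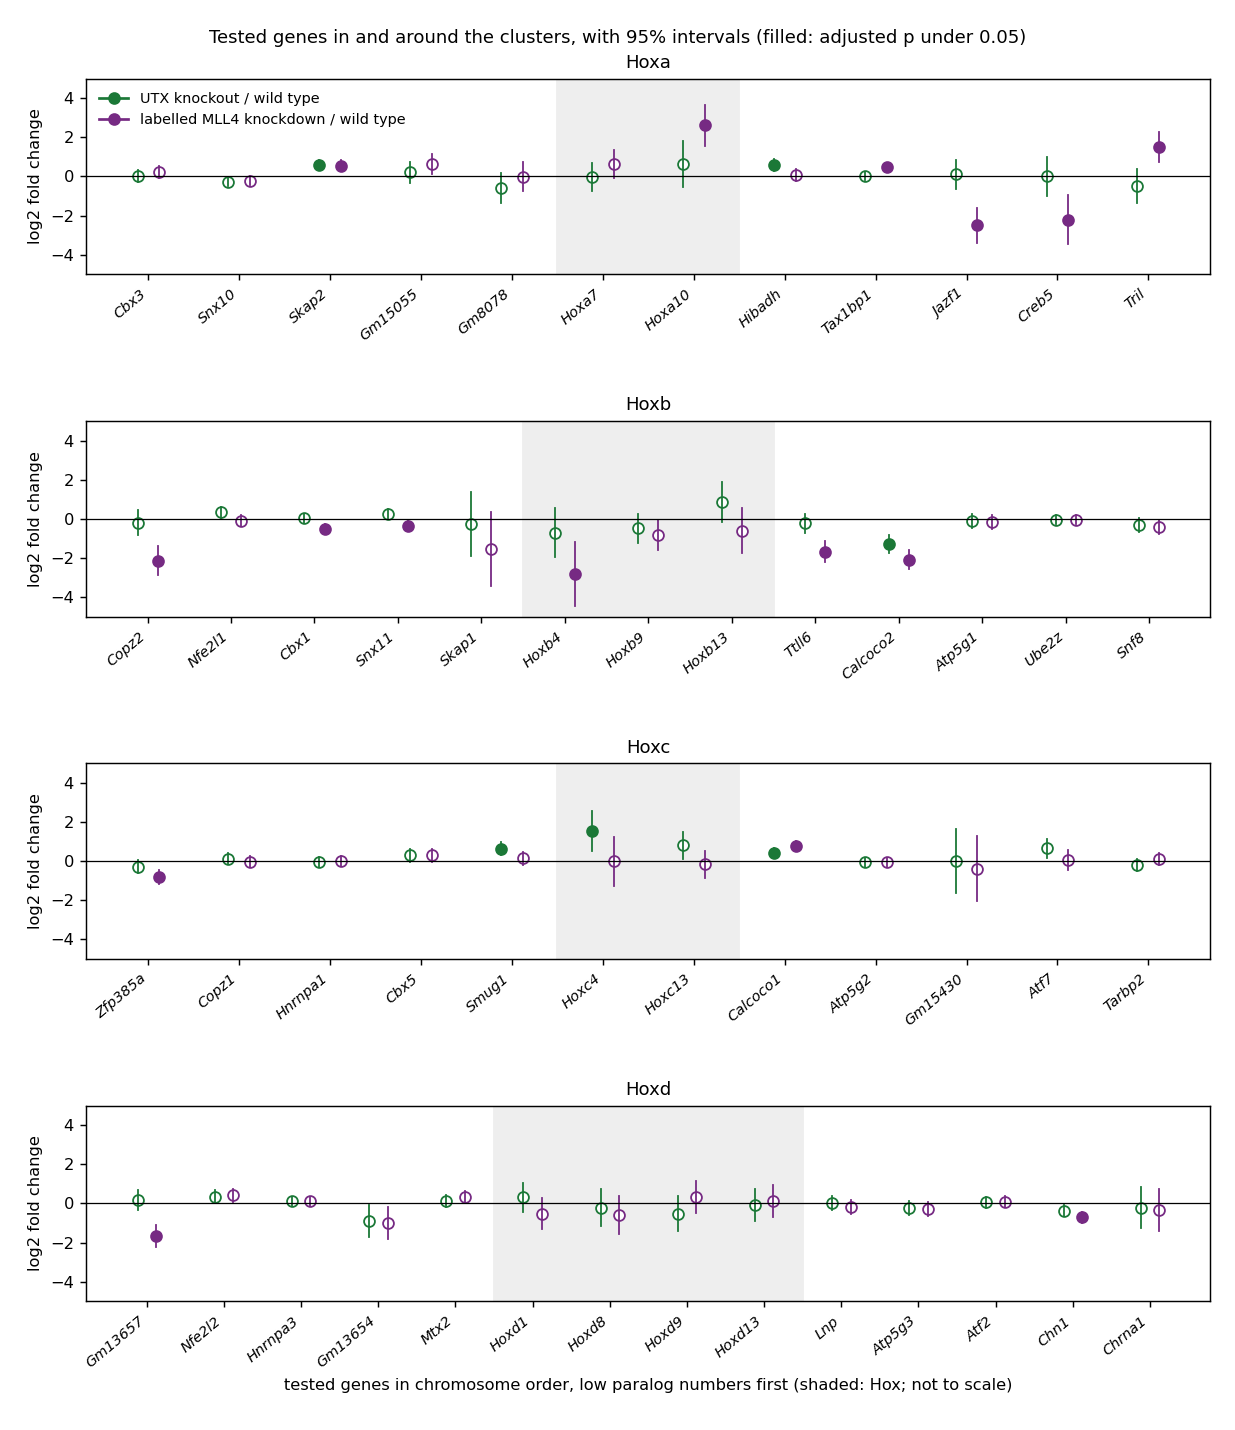
Log2 fold changes with 95% intervals of the tested Hox genes (shaded) and of the 5 tested genes on each side of each cluster, in chromosome order with the low paralog numbers first and not to scale; filled points have an adjusted p under 0.05. Beside Hoxb, 5 of 10 genes are filled and below 0 for the MLL4-labelled libraries, and beside Hoxd no gene is filled for the UTX knockout.

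The known regulators of the clusters were counted from lists, as genes tested, higher and lower. Over all genes tested, 6.55% rose and 8.92% fell in UTX knockout cells against wild type. In the MLL4-labelled libraries 10.8% rose and 15.8% fell against wild type, and 13% were higher and 16% lower than in the UTX knockout. These shares belong beside every list count below. Counts with the replicate block come from another fit, to which the shares do not apply. Of 35 Polycomb genes, 1 rose (Phc3, log2 fold change 0.90, adjusted p = 0.0346) and 0 fell in UTX knockout cells against wild type (2 and 0 with the replicate block). In the MLL4-labelled libraries 3 rose and 5 fell against wild type (6 and 6 with the replicate block), among them Aebp2 (-0.74, adjusted p = 0.0011), a subunit of Polycomb complex PRC2, and Pcgf5 (-1.05, adjusted p = 0.0020) and Bmi1 (0.68, adjusted p = 0.0033), subunits of PRC1. Of 20 Trithorax and H3K27 demethylase genes, 3 rose and 3 fell in UTX knockout cells, with Kdm6a and its Y-linked relative Uty (-4.07, adjusted p = 4e-05) among those that fell. In the MLL4-labelled libraries 6 rose and 2 fell, Uty (-3.83, adjusted p = 7.8e-06) and Ash2l (-0.82, adjusted p = 0.000958), a subunit shared by the MLL complexes. Uty ran from 9.67 to 16.8 CPM in wild type. It ran from 0.785 to 0.908 CPM in UTX knockout cells and from 0.724 to 1.13 CPM in the MLL4-labelled libraries. Whether this is a difference between lines was not tested. Between the MLL4-labelled libraries and the UTX knockout, 5 Polycomb genes were higher and 5 lower, and 5 and 1 Trithorax and demethylase genes (6 and 3 with the replicate block).

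Of the 11 TALE genes, whose homeodomain proteins bind DNA together with Hox proteins, 0 rose and 2 fell in UTX knockout cells, Meis2 (-2.33, adjusted p = 0.00069) and Meis3 (-1.32, adjusted p = 0.0078). In the MLL4-labelled libraries 2 rose and 3 fell against wild type: Meis1 rose (1.19, adjusted p = 0.0052) while Meis2 (-1.07, adjusted p = 0.0092) and Meis3 (-1.26, adjusted p = 0.0050) fell. Of 19 tested genes of the retinoic acid pathway, 3 rose (6.55% of all genes) and 6 fell (8.92%) in UTX knockout cells. In the MLL4-labelled libraries 2 rose (10.8%) and 9 fell (15.8%). Cyp26a1, which degrades retinoic acid, fell in both (-1.63, adjusted p = 0.0085, and -2.29, adjusted p = 0.00094), and Crabp2, which carries it to the nucleus, fell in both (-1.29, adjusted p = 0.0257, and -4.65, adjusted p = 4.2e-05). Other members went the other way. Tgm2 rose in both (1.28, adjusted p = 0.0152, and 1.15, adjusted p = 0.0151). Dhrs3 (1.43, adjusted p = 0.0117) and Aldh1a3 (1.60, adjusted p = 0.031) rose in UTX knockout cells. Of 15 tested inducers of posterior identity, 1 rose and 5 fell in either group against wild type, with Wnt3 falling in both (-1.75, adjusted p = 0.034, and -3.63, adjusted p = 0.0016), and in the MLL4-labelled libraries 3 rose with the replicate block. Between those 2 groups, 3 TALE genes were higher and 1 lower (2 with the replicate block) in the MLL4-labelled libraries, as were 2 and 7 retinoic acid genes and 2 and 2 posterior inducers.

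Markers of cell types that the cultures could hold also differed between the groups, and their part in the Hox values was not tested. Feeder or fibroblast markers (15 of 16 detected, Lum at 0) summed to 150 to 330 CPM in wild type, 82.5 to 102 CPM in UTX knockout cells and 153 to 192 CPM in the MLL4-labelled libraries. The largest member was Vim, also expressed outside fibroblasts, except in wild-type replicates 2 and 3. There Tagln was higher, at 158 and 103 CPM against 91.1 and 80.9 CPM for Vim. Vim fell in UTX knockout cells (log2 fold change -0.62, adjusted p = 0.0134) and rose in the MLL4-labelled libraries (0.58, adjusted p = 0.0100). Without Vim the sums were 56.1 to 239, 22.9 to 40.03 and 32.2 to 36.8 CPM, so both other groups lay below wild type. Of the 10 tested, 6 fell (8.92% of all genes) and 1 rose (6.55%) in UTX knockout cells. In the MLL4-labelled libraries 7 fell (15.8%) and 2 rose (10.8%).

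Trophectoderm markers (10 of 10 detected) summed to 147, 592 and 536 CPM in wild type, 127 to 178 CPM in UTX knockout cells and 98.9 to 119 CPM in the MLL4-labelled libraries. Wild-type replicate 1 thus stood apart from the other wild-type libraries and inside the UTX knockout range, and Krt8, a keratin, was at 19.7 CPM there against 211 and 170 CPM. Neural progenitor markers (9 of 9) summed to 153.5 to 187, 73.9 to 92.6 and 155 to 174 CPM by group, with members moving opposite ways. In the MLL4-labelled libraries Olig2 rose against wild type (2.35, adjusted p = 9.4e-05) while Nes (-3.19, adjusted p = 7.8e-06) and Tubb3 (-0.79, adjusted p = 0.0046) fell, and without Olig2 the sums were 132 to 174, 49.5 to 58.0 and 53.8 to 65.8 CPM. Primitive endoderm markers (8 of 8) summed to 103 to 146, 259 to 353 and 211 to 219 CPM, and without Lama1, the most abundant, to 12.9 to 17.1, 15.6 to 19.4 and 30.05 to 32.6 CPM. Mesoderm markers (10 of 10) summed to 16.3 to 38.96, 21.6 to 27.9 and 17.3 to 24.1 CPM. Blood and endothelial markers (6 of 8, with Hbb-bh1 and Hba-x at 0) summed to 101 to 111, 99.0 to 121 and 32.2 to 40.1 CPM, and without Pecam1, the most abundant, to 4.99 to 6.48, 5.57 to 7.51 and 6.07 to 6.67 CPM.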

How the data were processed

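RNA was sequenced from 9 mouse ES cell libraries made with the TruSeq RNA kit, per the labels' protocols. The authors deposited raw read counts per gene symbol, made per the submitters' processing notes with STAR 2.4 and HTSeq 0.6.1. Those notes name the genome builds mm9 and hg19 with no role for either. The annotation, the strand option and any filter: not given in the sources used here. Gene lengths, overlaps, neighbours and promoters came from GRCm38 tables, a later mouse build than mm9, and were joined by symbol, so gene models may differ from those counted. Groups came from the labels' titles and genotypes. The members, gene lists and tests were chosen with earlier results of these data known. The rule found 39 Hox genes, and 1 of them is not reported here and is left out of the counts and sums, though not of the fit over all genes.

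Counts were tested with edgeR 4.0.16 (quasi-likelihood, TMM scaling, filterByExpr, group as the only term, all 9 libraries in 1 fit) in R 4.3.3, two-sided, with Benjamini-Hochberg adjustment over 14772 genes and a threshold of 0.05. Library totals of 18570746 to 23874816 make 3 counts worth 0.128 to 0.161 CPM in a library, and floors cover counting error only. The code was checked on simulated data. Named in full were members passing in any comparison and the 2 of highest mean CPM in each cluster among those described; from each list, up to 4 called members of smallest p per comparison were eligible. The lists held Polycomb, Trithorax, TALE, posterior inducer, retinoic acid, related homeobox, cluster noncoding RNA and hindbrain target genes and cell type markers. Older symbols were matched through a RefSeq gene table, and promoters of 22 of the 38 genes described through RefSeq (GRCm38.p6).

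Replicate numbers come from the titles and run across the groups, with replicate 2 of each group in lane 1 and the others in lane 2. Same-numbered libraries deviated together, with correlations of 0.168 to 0.467 in the 3 comparisons. Correlations between libraries of other numbers ran from -0.412 to 0.226. Against wild type they reached at most 0.158 for the UTX knockout and 0.154 for the MLL4-labelled libraries. The lowest same-numbered values there were 0.168 and 0.182, so the ranges did not overlap. They overlapped only between the MLL4-labelled libraries and the UTX knockout, with 0.181 at the same number and 0.226 at other numbers. The main fit did not pair the numbers, and a fit with a replicate block was run beside it. Within each group, every pair of libraries differed by more than sampling noise (chi-square of their counts divided by its degrees of freedom: 6.42 to 56.5). Alternatives were other size factors, filters, DESeq2 1.42.0, the block, fewer groups, lane 2 alone and each library left out.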

Additional observations from a re-analysis of the deposited data

How the results depend on the processing

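Under other size factors, with no filter and with DESeq2, each comparison called the Hox genes given above, and cluster sums moved by less than their SD with either other scaling. With the replicate block, Hox calls were 2 in UTX knockout cells against wild type (Hoxc4 and Hoxc13) and all calls 3446 in place of 2285; the block changed no other Hox call. With only the 2 groups compared, 0 Hox genes were called in UTX knockout cells (all genes 1240) and 1, Hoxa10, in the MLL4-labelled libraries, where Hoxb4 was too low to be tested, as it was under the stricter filter (also 1 call). Lane 2 alone, with 2 libraries a group, called 0, 1 and 0 Hox genes and 74, 1341 and 1535 genes in all, for the UTX knockout against wild type, the MLL4-labelled libraries against wild type, and those 2 groups against each other.

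Leaving out 1 library at a time gave 0 to 1, 1 to 2 and 1 to 5 Hox calls in that order, and 833 to 2854, 2273 to 4108 and 2556 to 5281 calls over all genes. In these fits the filter kept 13 to 15 Hox genes, and Hoxb7 or Hoxa13 passed in some of them. Without all 3 libraries numbered 1, an alternative chosen after seeing the data, 2, 2 and 4 Hox genes were called, with Hoxc13 added in UTX knockout cells.

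No called Hox gene turned its direction under any alternative. Uncalled log2 fold changes that did were, for the UTX knockout against wild type, Hoxa7 (0.11 in lane 2 alone, -0.096 to 0.11 with 1 library left out), Hoxd13 (0.022 with the replicate block, 0.38 without the libraries numbered 1, -0.32 to 0.31 with 1 left out), Hoxa10 (-0.066 to 0.98 with 1 left out) and Hoxd8 (-0.33 to 0.028). For the MLL4-labelled libraries against wild type they were Hoxc4 (-0.013 under the stricter filter, -0.14 without the libraries numbered 1, -0.35 to 0.61 with 1 left out), Hoxd8 (0.043 in lane 2 alone), Hoxd9 (-0.037 without the libraries numbered 1), Hoxc13 (-0.69 to 0.061 with 1 left out) and Hoxd13 (-0.31 to 0.52). Against the UTX knockout they were Hoxd13 (-0.35 without the libraries numbered 1, -0.25 to 0.40 with 1 left out) and Hoxd8 (0.14 in lane 2 alone, -0.93 to 0.017 with 1 left out). The cause was not tested. Depth limits what can be seen of the 27 untested members, which share 601 counts.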

Other observations

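Of 21 noncoding RNAs of the clusters, 17 were found in the table and 2 were tested. Halr1, listed as Gm15055 and lying beside the Hoxa cluster, was at 10.4, 19.9 and 20.9 CPM in wild type, 21.3, 17.3 and 20.7 CPM in UTX knockout cells and 22.9, 24.8 and 33.0 CPM in the MLL4-labelled libraries. Its 4132 counts exceed the 2881 of the 38 Hox genes together, as raw counts not scaled to length, so levels are not compared. Halr1 is also among the 40 genes beside the clusters counted above. The MLL4-labelled libraries lay above both other groups, with a log2 fold change of 0.65 against wild type (SE 0.24, edgeR adjusted p = 0.0627; 0.0226 with the replicate block, and 0.0170 to 0.228 over the alternatives). Hoxb3os had 11, 3 and 1 counts in wild type and 0 in the other 6 libraries. Hotair had 1 count in all and Hottip 5. Of the microRNA genes of the clusters, Mir196a-1 had 41 counts and Mir10a, Mir10b, Mir196a-2, Mir196b and Mir615 were listed at 0.

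Of 8 tested homeobox genes outside the clusters, 0 rose (6.55% of all genes) and 2 fell (8.92%) in UTX knockout cells against wild type. The 2 were Gbx1 (log2 fold change -1.35, adjusted p = 0.0062) and En1 (-2.30, adjusted p = 0.0157). In the MLL4-labelled libraries 3 rose (10.8%) and 1 fell (15.8%) against wild type. The genes that rose were En2 (1.64, adjusted p = 0.00063), Gsx2 (3.72, adjusted p = 0.0078) and Gbx2 (1.22, adjusted p = 0.0093), which pattern the midbrain, hindbrain and forebrain. Between the MLL4-labelled libraries and the UTX knockout 3 were higher (13%) and 0 lower (16%). Of 5 tested hindbrain genes reported as Hox targets or partners, Epha4 rose in UTX knockout cells (0.74, adjusted p = 0.012), 0 changed in the MLL4-labelled libraries against wild type, and Epha4 was lower there than in UTX knockout cells (-0.52, adjusted p = 0.032), with 1 gene higher under the replicate block.

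The 24 RefSeq promoter windows of Hox genes held a median of 12.5 CpG dinucleotides in 250 bases, against 6 over all 32851 windows. The letters TTTATG, a core bound by Cdx factors, were in 20.8% of the Hox windows and 10.8% of all windows, and TGATNNAT, the composite of Pbx and Hox proteins, in 16.7% and 7.68%, on either strand. These shares describe sequence letters and no binding.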
